A study of Homo sapiens with 10 samples.

Results

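The genes of fatty acid synthesis, desaturation, elongation and oxidation, with those of fatty acid activation and glycerolipid assembly, were followed through 41 genes of the 20263 listed in the expression table. They were chosen by name for their known roles, with earlier results of these data known, and all 41 were found through their Ensembl IDs. The cells were PANC-1, a widely used line that was derived from a pancreatic carcinoma of a human donor, and their transcripts were read by RNA sequencing. The LY group held 5 libraries of cells given 20 µM LY for 24 h, where LY is lycorine, a plant alkaloid named in the series title. The DMSO group held 5 libraries of cells given the vehicle only, which are written NC-1 to NC-5. No other agent and no genetic change is named for either group, and all libraries come from 1 cell line. The question asked here was how LY treatment moved the transcripts of the synthetic enzymes relative to those of oxidation.

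Fatty acid synthesis starts from citrate, which leaves the mitochondrion, is cleaved to acetyl-CoA, and is carboxylated to malonyl-CoA for fatty acid synthase. Desaturases then place double bonds in the chain and a membrane-bound cycle of condensation and reduction lengthens it. Oxidation runs the other way: carnitine palmitoyltransferases bring acyl groups into the mitochondrion, where dehydrogenases, a hydratase and the trifunctional protein shorten them. Malonyl-CoA is known to inhibit the carnitine palmitoyltransferase at the mitochondrial surface, and many carcinomas carry high levels of the synthetic enzymes.

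Levels are deposited TPM, a unit scaled by gene length and by library total, and the read depth behind them is unknown. A gene was tested when at least 5 of the 10 libraries held 1 TPM, which left 37 of the 41 genes and 11663 genes in all. Each fold change sets LY over DMSO on a log2(TPM + 1) scale and is given ± SE from a limma fit over all tested genes, and a gene is said to have risen or fallen where the Benjamini-Hochberg adjusted p was under 0.05. The scale understates the change of genes of low level. Of the 4 untested genes, THRSP, a regulator of lipogenesis in liver and fat, was listed at 0 in every library. The elongase ELOVL4 reached at most 0.118 TPM and the acyl-CoA synthetase ACSL5 at most 0.148 TPM, and the elongase ELOVL2 ran from 0.507 to 0.910 TPM in LY and from 0.262 to 0.608 TPM in DMSO.

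One control library stood apart. Mitochondrially encoded genes took 6.43% to 14.9% of all TPM in LY and 12.2% to 37.5% in DMSO. NC-2 held the 37.5%, and the other 4 controls held 12.2% to 14.1%. Since TPM sum to a fixed total, the other genes of NC-2 share a smaller remainder. NC-2 was the lowest control for 33 of the 37 tested genes, and the part of that remainder in this count was not tested. The same count over all tested genes is not given here. Values that leave NC-2 out or follow another scaling of the libraries are given beside the results whose call they changed. Marker genes gave the keratins KRT8 (1182 to 1514 TPM in LY, 1069 to 1601 TPM in DMSO) and KRT18 (941 to 1088 TPM in LY, 664 to 833 TPM in DMSO), whereas the epithelial markers CDH1 and KRT7 stayed below 1 TPM in every library. KRT19, on the same epithelial list, ran from 15.8 to 24.7 TPM in LY and from 123 to 166 TPM in DMSO. EPCAM, also on that list, ran from 0.767 to 1.76 TPM in LY and from 0.351 to 1.32 TPM in DMSO. Of the mesenchymal markers, VIM ran from 2911 to 3709 TPM in LY and from 3990 to 4520 TPM in DMSO. ZEB1 ran from 26.8 to 69.7 TPM in LY and from 9.18 to 21.9 TPM in DMSO. The mesenchymal marker CDH2 stayed low, with 0.0841 to 0.278 TPM in LY and 0.0839 to 0.183 TPM in DMSO. Of the markers of acinar cells, adipocytes, hepatocytes and leukocytes, 17 genes in all, none reached 1 TPM. The fibroblast markers COL1A1, COL1A2 and DCN summed to 27.7 to 37.7 TPM in LY and 68.8 to 115 TPM in DMSO. DCN stood at 0 in every library. The endothelial list of 3 genes summed to 2.74 to 3.32 TPM in LY and 0.0988 to 0.535 TPM in DMSO. That sum was nearly all CDH5, with 2.68 to 3.22 TPM in LY and 0.0988 to 0.535 TPM in DMSO. VWF reached at most 0.101 TPM and PECAM1 stood at 0 in every library. The part of these fibroblast and endothelial markers in the results was not tested.

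LY-treated cells had lower transcript levels of the citrate carrier, of the second acetyl-CoA carboxylase, of the cytosolic acetyl-CoA synthetase, of 3 of 5 desaturases and of the last enzyme of the elongation cycle. Those 7 genes lay at least 2-fold lower in LY on the log2 scale. Fatty acid synthase was not among them. Over the 37 tested genes 7 rose, 15 fell and 15 were not called. Across all tested genes 64.6% were called, 39.8% risen and 24.9% fallen. Of the 37, 8 fell at least 2-fold (9.76% of all tested genes) and 2 rose at least 2-fold (12.4%). With median-ratio scaling 5 of the 37 rose and 20 fell, against 34.1% risen and 32.2% fallen of all tested genes, and the median of all tested genes shifted to 0.034. Without scaling the median log2 fold change was -0.26 over the 37 and 0.17 over all tested genes. Values of LY and DMSO did not overlap in 12 of the 37 (49.4% over all tested genes), of which 4 were higher (32.7%) and 8 lower (16.7%) in LY. Another coding or listed gene overlaps 14 of the 37, whose values can hold reads of that neighbour. In bulk samples fewer cells of a type and less RNA per cell cannot be told apart.

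**Figure D1:**
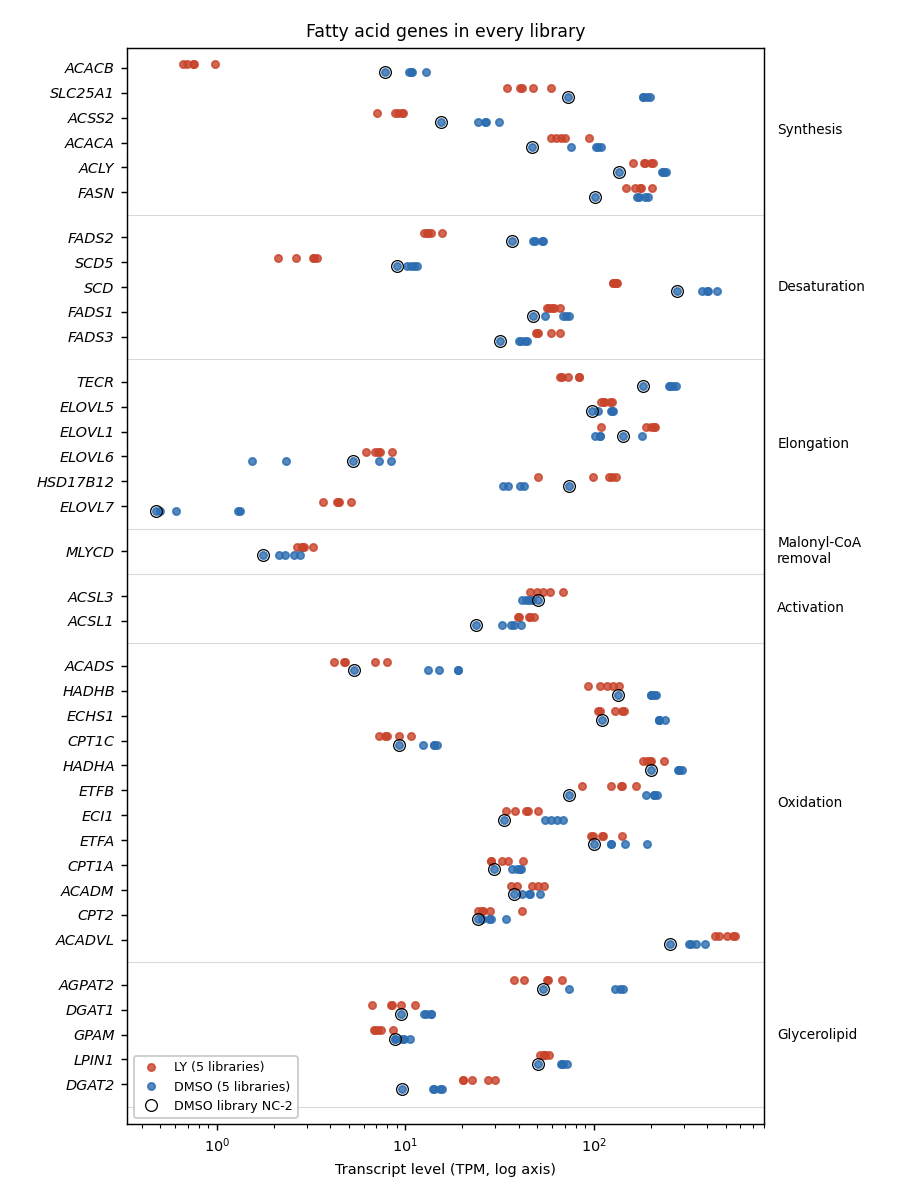
Transcript level (TPM, log axis) of the 37 tested genes in each of the 5 LY and 5 DMSO libraries, grouped by role, with 1 point per library. The LY points of ACACB, SCD, FADS2, TECR and SLC25A1 lie left of all DMSO points, and the ringed control NC-2 is the lowest control in 33 of the 37 rows.

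Among the 6 tested synthesis genes 3 fell, none rose and 3 were not called, with a median log2 fold change of -0.81. ACACB, the acetyl-CoA carboxylase bound to the outer mitochondrial membrane, whose malonyl-CoA is known to restrain fatty acid import (ENSG00000076555, chromosome 12, 109116595 to 109268226 on hg38, as are the positions that follow), measured 0.662, 0.979, 0.745, 0.690 and 0.754 TPM in LY, against 10.7, 7.82, 12.9, 10.8 and 10.4 TPM in DMSO. Every LY library lay below every control, and the mean was 13.7-fold lower in LY. Its log2 fold change was -2.69 ± 0.12 (adjusted p = 1.34e-08), the furthest from 0 among the 37. No LY library reached 1 TPM, so ACACB entered the test only through its controls.

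SLC25A1, the mitochondrial carrier that exports citrate (ENSG00000100075, chromosome 22, 19175575 to 19178830), held 34.8, 40.8, 41.4, 47.8 and 59.0 TPM in LY, against 183, 72.7, 199, 182 and 191 TPM in DMSO. The groups did not overlap, with NC-2 the only control near the LY range, and the gene fell (log2 fold change -1.80 ± 0.26, adjusted p = 6.83e-05). Without NC-2 its log2 fold change was -2.07. ACSS2, the cytosolic and nuclear enzyme that turns acetate into acetyl-CoA, measured 7.05, 9.11, 8.80, 9.62 and 9.73 TPM in LY, against 26.5, 15.4, 31.3, 24.3 and 26.7 TPM in DMSO. It fell without overlap of the groups (log2 fold change -1.36 ± 0.17, adjusted p = 2.05e-05), and GGT7 overlaps it on the opposite strand.

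The 3 abundant enzymes of the core pathway did not pass. FASN, the fatty acid synthase that builds palmitate, measured 165, 177, 149, 178 and 204 TPM in LY, against 194, 101, 186, 170.0 and 174 TPM in DMSO. The groups overlapped, and the log2 fold change of 0.11 had a 95% interval from -0.26 to 0.48 and turned to -0.13 with median-ratio scaling of the 9 libraries other than NC-2. ACLY, which cleaves citrate to acetyl-CoA, averaged 189 ± 17.8 TPM in LY and 216 ± 44.7 TPM in DMSO (SD, n = 5 each; log2 fold change -0.17, 95% interval -0.51 to 0.17). ACACA, the cytosolic acetyl-CoA carboxylase, averaged 70.8 ± 14.0 TPM in LY and 87.9 ± 26.4 TPM in DMSO (log2 fold change -0.26, 95% interval -0.75 to 0.22). Without NC-2 both ACLY (-0.33, adjusted p = 0.00419 by limma) and ACACA (-0.47, adjusted p = 0.0143 by limma) fell. With NC-2 kept, both also fell with quantile scaling (ACLY -0.44, adjusted p = 0.00164, and ACACA -0.52, adjusted p = 0.0218), and ACLY fell with median-ratio scaling (-0.31, adjusted p = 0.0169), where ACACA did not pass (-0.41, adjusted p = 0.0559). MLYCD, which removes malonyl-CoA, averaged 2.90 ± 0.210 TPM in LY and 2.29 ± 0.386 TPM in DMSO and did not pass (log2 fold change 0.25 ± 0.11, adjusted p = 0.0557 by limma). It passed without NC-3 (0.30, adjusted p = 0.0355) and with quantile scaling (0.43, adjusted p = 0.000588), whereas its log2 fold change was 0.15 with median-ratio scaling (adjusted p = 0.15) and 0.074 with upper-quartile scaling (adjusted p = 0.465).

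A ratio of 2 genes within a library depends little on how that library was scaled, apart from the 1 TPM added to each gene, and 8 such log2 ratios were tested by exact permutation (two-sided) of all library assignments, whose smallest p is 0.00794. The ratio of ACACB to ACACA ran from -5.83 to -5.10 in LY and from -3.27 to -2.44 in DMSO (difference -2.43, exact p = 0.00794, adjusted over the 8 ratios 0.0159). ACACB made up 1.10 ± 0.259% of the summed TPM of the 2 carboxylases in LY and 11.2 ± 2.24% in DMSO (SD, n = 5 each). The ratio of ACSS2 to ACLY was also lower in LY, -4.27 ± 0.0916 against -3.07 ± 0.119 in DMSO (SD, n = 5 each; difference -1.19, exact p = 0.00794, adjusted 0.0159). NC-2 lay within the range of the other controls for ACSS2/ACLY, and for ACACB/ACACA it was the highest control, farthest from LY.

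Of the 5 desaturases 3 fell, 1 rose and 1 did not pass. SCD, stearoyl-CoA desaturase, which makes monounsaturated oleate and palmitoleate (ENSG00000099194, chromosome 10, 100347124 to 100364834), measured 126, 131.5, 131, 132 and 126 TPM in LY, against 376, 277, 448, 398 and 405 TPM in DMSO. The LY libraries lay within a narrow band below all controls, and the mean was 2.94-fold lower (log2 fold change -1.53 ± 0.12, adjusted p = 5.55e-07). Its paralog SCD5 measured 3.22, 2.11, 3.29, 2.61 and 3.40 TPM in LY, against 10.3, 9.06, 11.2, 11.6 and 10.8 TPM in DMSO. SCD5 was also lower in every LY library (log2 fold change -1.57 ± 0.12). The ratio of SCD5 to SCD differed by -0.034 between LY and DMSO (exact p = 0.786, adjusted 0.786), with -5.41 to -4.85 in LY and -5.21 to -4.79 in DMSO. SCD5 is low enough for the pseudocount to weigh: with 0.1 TPM added in place of 1 the difference was -0.29 (adjusted exact p = 0.127).

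FADS2, the delta-6 desaturase of polyunsaturated fatty acids (ENSG00000134824, chromosome 11, 61792980 to 61867354), measured 13.6, 13.3, 15.6, 12.6 and 12.95 TPM in LY, against 48.9, 36.8, 53.5, 53.2 and 47.4 TPM in DMSO. It fell without overlap of the groups (log2 fold change -1.74 ± 0.11, adjusted p = 1.59e-07). FADS1, the delta-5 desaturase that acts after it in the same pathway, measured 61.4, 66.2, 57.8, 59.9 and 56.7 TPM in LY, against 54.8, 47.5, 73.7, 71.0 and 68.3 TPM in DMSO. The groups overlapped and FADS1 did not pass (log2 fold change -0.043, 95% interval -0.32 to 0.23). It fell with quantile scaling (-0.30, adjusted p = 0.0183) and with upper-quartile scaling (-0.29, adjusted p = 0.0264), and had a log2 fold change of -0.19 with median-ratio scaling (adjusted p = 0.119). FADS3, the third gene of the cluster, rose, with 55.0 ± 7.26 TPM in LY and 40.1 ± 4.93 TPM in DMSO (SD, n = 5 each; log2 fold change 0.45 ± 0.12, adjusted p = 0.00572). It did not pass under quantile (adjusted p = 0.0858) or upper-quartile scaling (adjusted p = 0.0714), and its log2 fold change was 0.29 with NC-2 left out and median-ratio scaling (adjusted p = 0.0207). The log2 ratio of FADS1 to FADS2 was 2.07 ± 0.155 in LY and 0.38 ± 0.135 in DMSO (SD, n = 5 each; difference 1.69, exact p = 0.00794, adjusted 0.0159). FADS1 and FADS2 overlap on opposite strands and FEN1 overlaps FADS2 on the same strand, and no source says whether counting used strand, so reads in the shared stretches cannot be told apart.

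Together the 5 desaturases summed to 255, 272, 257, 257 and 265 TPM in LY, against 534, 402, 629, 575 and 572 TPM in DMSO, and no library of LY reached the lowest control. SCD took 49.6 ± 1.65% of that sum in LY and 70.1 ± 0.999% in DMSO. FADS1 took 23.1 ± 1.21% in LY and 11.6 ± 0.794% in DMSO, and FADS3 21.0 ± 2.36% in LY and 7.44 ± 0.626% in DMSO (SD, n = 5 each). NC-2 held 68.9% for SCD, where the other controls held 69.2% to 71.2%.

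**Figure D2:**
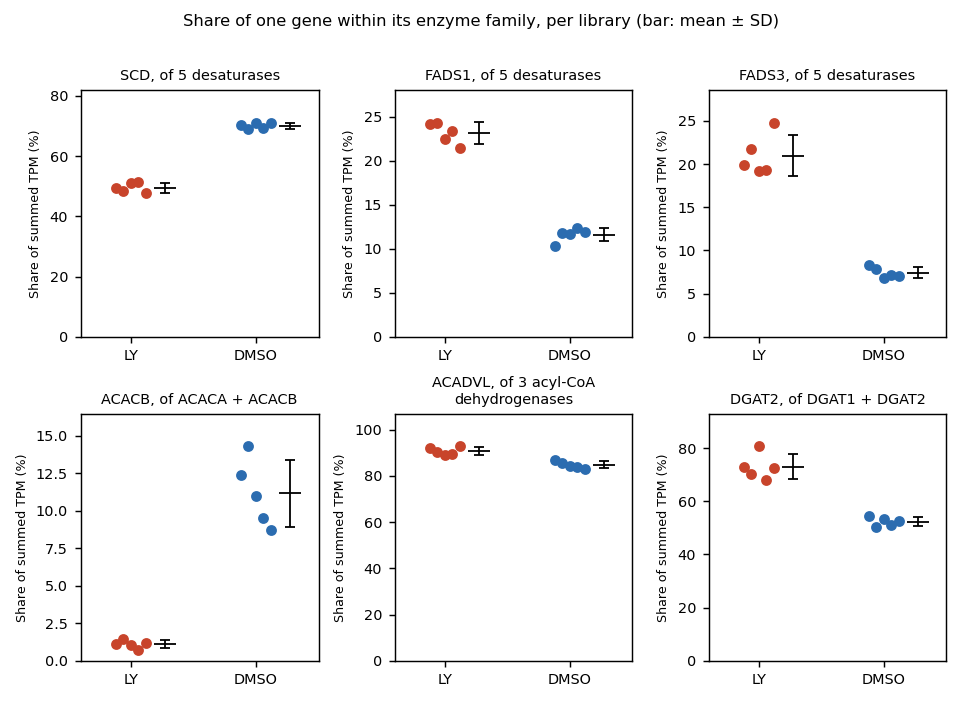
Share (%) of 1 gene in the summed TPM of its enzyme family, for each of 5 LY and 5 DMSO libraries, with the mean ± SD beside the points and axes from 0. SCD took 49.6% in LY and 70.1% in DMSO, ACACB 1.10% in LY and 11.2% in DMSO, and DGAT2 73.0% in LY and 52.4% in DMSO, with no overlap between groups in any panel.

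Elongation went both ways: of 6 tested genes 3 rose, 1 fell and 2 were not called, with a median log2 fold change of 0.57. TECR, the reductase of the last step of each elongation round (ENSG00000099797, chromosome 19, 14517085 to 14565980), measured 72.6, 83.7, 67.7, 66.0 and 83.5 TPM in LY, against 273, 183, 264, 251.7 and 255 TPM in DMSO. It fell in every LY library relative to every control (log2 fold change -1.70 ± 0.13, adjusted p = 3.49e-07), and DNAJB1 overlaps it on the opposite strand. HSD17B12, the reductase of the second step of the same cycle, measured 119.9, 99.0, 131, 126 and 50.5 TPM in LY, against 42.4, 73.4, 35.1, 33.1 and 40.6 TPM in DMSO. It rose (log2 fold change 1.20 ± 0.27, adjusted p = 0.00226), although LY-5 lay below NC-2, so the groups overlapped. TECR and HSD17B12, reductases of one cycle, thus had log2 fold changes of opposite sign, and each kept its sign and call under every alternative run.

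The elongases proper set the chain length. ELOVL7, an elongase of long chains, measured 4.41, 5.15, 4.45, 3.66 and 4.35 TPM in LY, against 0.607, 0.477, 0.496, 1.29 and 1.33 TPM in DMSO. It rose without overlap (log2 fold change 1.58 ± 0.15, adjusted p = 3.14e-06), and it entered the test through its LY libraries, since 2 of 5 controls reached 1 TPM. Its mean was 5.24-fold higher in LY. ELOVL1, an elongase of saturated very long chains, measured 211, 200.1, 188, 109 and 209 TPM in LY, against 108, 144, 181, 102 and 108 TPM in DMSO. It passed narrowly (log2 fold change 0.51 ± 0.21, adjusted p = 0.0491). That call was lost when any of 7 libraries was left out (LY-1, LY-2, LY-3, LY-5, NC-1, NC-4 or NC-5; log2 fold change 0.43 to 0.49, adjusted p = 0.0906 to 0.111) and under median-ratio scaling (0.36, adjusted p = 0.183). LY-4 and NC-3 each lay with the libraries of the other group.

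ELOVL6, which extends palmitate to stearate, measured 7.14, 8.48, 6.17, 6.90 and 7.36 TPM in LY, against 1.54, 5.28, 8.35, 7.24 and 2.32 TPM in DMSO. Its controls were spread over a 5-fold range, and it did not pass (log2 fold change 0.63, 95% interval -0.063 to 1.33). Without NC-3 it did (0.84, adjusted p = 0.0296 by limma). ELOVL5, an elongase of polyunsaturated chains, averaged 116 ± 6.45 TPM in LY and 116 ± 13.5 TPM in DMSO (SD, n = 5 each; log2 fold change 0.013, 95% interval -0.20 to 0.23). With upper-quartile scaling ELOVL5 fell (-0.23, adjusted p = 0.0231), as it did with quantile scaling (-0.27, adjusted p = 0.0123).

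Start regions of 5 genes of the synthesis arm are shown: SCD, TECR, SLC25A1 and FADS2, which fell at least 2-fold, and FADS1, the neighbour of FADS2, which did not pass as deposited. They were taken from RefSeq on GRCh38.p14, around an annotated start, and are written 5′ to 3′ along the gene. Capitals mark the CCAAT box in either orientation (CCAAT or ATTGG), the element of the factor NF-Y, which is known to act beside sterol regulatory element-binding proteins at lipogenic promoters. Where a gene had several windows, the window with the most such boxes was chosen to be shown. The window of SCD lies at chr10:100346983-100347282, plus strand, that of TECR at chr19:14529344-14529643, plus strand, that of SLC25A1 at chr22:19178687-19178986, minus strand, that of FADS2 at chr11:61816154-61816453, plus strand, and that of FADS1 at chr11:61816954-61817253, minus strand.
SCD: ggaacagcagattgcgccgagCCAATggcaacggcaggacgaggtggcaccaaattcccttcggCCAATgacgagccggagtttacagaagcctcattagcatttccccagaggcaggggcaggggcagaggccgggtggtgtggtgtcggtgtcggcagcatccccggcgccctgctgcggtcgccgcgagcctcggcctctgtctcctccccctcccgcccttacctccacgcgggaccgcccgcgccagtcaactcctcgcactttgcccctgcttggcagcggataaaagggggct
TECR: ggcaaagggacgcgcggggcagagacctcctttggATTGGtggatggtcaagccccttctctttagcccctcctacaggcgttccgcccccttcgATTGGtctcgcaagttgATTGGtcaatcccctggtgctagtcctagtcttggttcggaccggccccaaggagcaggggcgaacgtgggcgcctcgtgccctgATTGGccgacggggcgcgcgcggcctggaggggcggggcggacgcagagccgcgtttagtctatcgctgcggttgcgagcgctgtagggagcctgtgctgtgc
SLC25A1: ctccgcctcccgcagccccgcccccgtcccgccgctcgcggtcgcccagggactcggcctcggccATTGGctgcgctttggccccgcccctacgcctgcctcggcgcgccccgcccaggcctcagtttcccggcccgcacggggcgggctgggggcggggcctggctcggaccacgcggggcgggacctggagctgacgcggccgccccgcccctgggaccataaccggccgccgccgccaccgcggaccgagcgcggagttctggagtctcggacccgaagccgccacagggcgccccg
FADS2: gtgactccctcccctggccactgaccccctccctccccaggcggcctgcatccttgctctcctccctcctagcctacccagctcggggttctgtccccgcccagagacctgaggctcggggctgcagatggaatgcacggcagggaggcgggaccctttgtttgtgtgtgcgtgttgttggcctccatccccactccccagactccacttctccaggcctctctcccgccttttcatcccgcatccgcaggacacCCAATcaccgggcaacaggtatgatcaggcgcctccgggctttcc
FADS1: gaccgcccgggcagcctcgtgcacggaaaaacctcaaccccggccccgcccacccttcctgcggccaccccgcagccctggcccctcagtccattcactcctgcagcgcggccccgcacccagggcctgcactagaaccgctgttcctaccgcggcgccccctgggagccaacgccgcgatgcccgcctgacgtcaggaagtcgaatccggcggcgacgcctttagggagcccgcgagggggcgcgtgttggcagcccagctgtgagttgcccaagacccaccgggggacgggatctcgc

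In the windows shown SCD held 2 such boxes, TECR 4, SLC25A1 1, FADS2 1 and FADS1 none. A further window of FADS2, chr11:61815953-61816252, held none, and a further window of TECR, chr19:14529310-14529609, held 4. Windows were found for 37 of the 41 genes, several genes having more than 1. These are not the 37 tested genes. FASN, HSD17B12, DGAT1 and DGAT2 had no window, whereas the untested ELOVL2, ELOVL4, ACSL5 and THRSP did. A CCAAT box stood in a window of 21 of the 37 genes with a window, and 39.7% of all 27305 genes with a window held it. Of the 8 genes that fell at least 2-fold 7 held it, the exception being ACADS. Of the other 29 genes with a window 14 did, the untested ELOVL4 and THRSP among them. A gene counted when any of its windows held the box. ACACB, ACSS2 and FADS2 of the 8, and ACACA, ACSL1, CPT1C and ETFB of the others, also had a window without it. The share among all genes that fell is not given here, and a link of the box to the falls was not tested. The core of the sterol regulatory element, TCACNCCAC on either strand, was found only for ACSL1 (1.39% of all genes), the E-box CACGTG for ELOVL4 and ELOVL5 (8.77% of all genes), and neither the direct repeat element DR1 of PPARs nor the amino acid response elements TGATGCAAT and TGATGNAAN for any of the 37. A match describes these letters in these windows only. The annotated starts of FADS1 and FADS2 in the windows shown lie 599 bases apart on opposite strands.

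Of the 12 oxidation genes, all tested, 1 rose, 5 fell and 6 were not called, with a median log2 fold change of -0.37. ACADS alone of the 12 lay at least 2-fold lower, and none did without NC-3 or without NC-5, while in the synthesis arm 7 of 17 tested genes did (9.76% of all tested genes). Groups did not overlap in 1 of the 12, ACADVL, and in 9 of 17 in the synthesis arm (49.4% of all tested genes). With NC-2 left out they did not overlap in 8 of the 12 and in 11 of the 17 (61.4% of all tested genes). The number that fell depended on NC-2 and on scaling alike: 8 of the 12 fell without NC-2, 8 with median-ratio scaling of all libraries, and 9 with quantile scaling, with upper-quartile scaling or with the mitochondrially encoded genes removed. Falls among all 11663 tested genes grew too, from 2899 as deposited to 3610 once NC-2 was dropped. Upper-quartile scaling gave 4228 such falls, median-ratio scaling 3757 and quantile scaling 3694. Removal of the mitochondrially encoded genes gave 3913 among 11829 tested genes. Over all tested genes the share that fell was 24.9% as deposited and 32.2% with median-ratio scaling, beside 5 and 8 of the 12. Whether the growth differed between the 12 and all tested genes was not tested. With NC-2 left out and median-ratio scaling 1 of the 12 rose and 9 fell (36.3% of all tested genes rose and 34.3% fell).

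Of the 3 carnitine palmitoyltransferase genes 1 fell, CPT1C, while CPT1A and CPT2 did not pass as deposited. CPT1A, the carnitine palmitoyltransferase of the outer membrane and the rate-limiting step, measured 28.5, 32.7, 35.1, 28.4 and 42.3 TPM in LY, against 41.2, 29.5, 39.4, 40.6 and 36.9 TPM in DMSO. It did not pass (log2 fold change -0.17, 95% interval -0.46 to 0.12), but fell with median-ratio scaling of all libraries (-0.31, adjusted p = 0.0212) and of those other than NC-2 (-0.32, adjusted p = 0.0209 by limma). CPT2, the enzyme of the inner membrane, averaged 29.04 ± 7.09 TPM in LY and 28.1 ± 3.82 TPM in DMSO (SD, n = 5 each; log2 fold change 0.029, 95% interval -0.30 to 0.35). CPT1C, the neuronal form also known from tumour cells, fell, with 8.59 ± 1.39 TPM in LY and 12.9 ± 2.23 TPM in DMSO (log2 fold change -0.53 ± 0.14, adjusted p = 0.00575). The log2 ratio of CPT1A to CPT2 differed by -0.20 between LY and DMSO (exact p = 0.365, adjusted 0.487).

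The acyl-CoA dehydrogenases, which take the first oxidative step and differ by chain length, diverged. ACADVL, for very long chains (ENSG00000072778, chromosome 17, 7217125 to 7225273), measured 512, 549, 439, 459 and 564 TPM in LY, against 391, 254, 327, 319 and 349 TPM in DMSO. It rose without overlap (log2 fold change 0.63 ± 0.13, adjusted p = 0.000962) and was the most abundant of the 41 genes in LY; DLG4 overlaps it on the opposite strand. ACADM, for medium chains, averaged 45.5 ± 7.58 TPM in LY and 44.5 ± 5.19 TPM in DMSO (log2 fold change 0.025, 95% interval -0.26 to 0.30). ACADS, for short chains, measured 4.17, 4.79, 4.75, 6.90 and 8.01 TPM in LY, against 13.2, 5.32, 19.0, 15.2 and 19.1 TPM in DMSO. It fell (log2 fold change -1.12 ± 0.29, adjusted p = 0.00545), with NC-2 the only control inside the LY range. ACADVL took 90.7 ± 1.69% of the summed TPM of the 3 dehydrogenases in LY and 84.8 ± 1.47% in DMSO (SD, n = 5 each).

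The trifunctional protein, which carries out the remaining steps on long chains, has an alpha subunit made from HADHA and a beta subunit made from HADHB. HADHA measured 181, 193, 235, 202 and 199 TPM in LY, against 280.1, 202, 295, 282 and 282 TPM in DMSO. HADHB measured 108, 92.9, 126, 137 and 118 TPM in LY, against 200.5, 135, 201, 215 and 209 TPM in DMSO. Both fell (log2 fold change -0.40 ± 0.12, adjusted p = 0.0117, for HADHA, and -0.71 ± 0.15, adjusted p = 0.00109, for HADHB), and in each case NC-2 alone among the controls overlapped LY. The log2 ratio of HADHA to HADHB was 0.80 ± 0.181 in LY and 0.49 ± 0.0798 in DMSO (SD, n = 5 each; difference 0.31, exact p = 0.0159, adjusted 0.0254). Leaving out any of 8 libraries (all but LY-4 and NC-2) brought the adjusted exact p of this ratio to 0.0508, with differences of 0.25 to 0.33.

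HADHA and HADHB are shown with their start regions because they are read in opposite directions from starts 307 bases apart and both fell. The 2 genes overlap on opposite strands. Their windows of RefSeq on GRCh38.p14, chr2:26244583-26244882, minus strand and chr2:26244689-26244988, plus strand, share 194 bases. Capitals would mark CCAAT boxes, of which neither window holds any.
HADHA: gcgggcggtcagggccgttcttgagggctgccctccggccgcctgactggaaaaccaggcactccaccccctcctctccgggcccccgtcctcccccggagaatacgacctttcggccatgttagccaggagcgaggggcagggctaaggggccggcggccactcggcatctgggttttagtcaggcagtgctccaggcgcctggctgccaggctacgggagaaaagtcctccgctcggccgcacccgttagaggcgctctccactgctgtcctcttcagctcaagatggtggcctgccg
HADHB: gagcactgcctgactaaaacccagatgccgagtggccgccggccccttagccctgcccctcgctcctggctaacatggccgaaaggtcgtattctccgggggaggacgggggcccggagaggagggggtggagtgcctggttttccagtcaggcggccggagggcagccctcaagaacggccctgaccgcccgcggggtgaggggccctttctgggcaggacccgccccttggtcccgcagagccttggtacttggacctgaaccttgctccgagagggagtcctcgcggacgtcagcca

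Among the remaining oxidation genes, ECHS1, the short-chain enoyl-CoA hydratase, measured 105, 108, 129.6, 144 and 141 TPM in LY, against 222, 111, 222, 221 and 239 TPM in DMSO. It fell (log2 fold change -0.65 ± 0.20, adjusted p = 0.0123), and NC-2 lay inside the LY range. ECI1, the isomerase for unsaturated chains, averaged 42.3 ± 6.24 TPM in LY and 55.9 ± 13.6 TPM in DMSO (log2 fold change -0.37, 95% interval -0.76 to 0.032). ETFB, a subunit of the electron carrier that serves the dehydrogenases, measured 86.4, 124, 140.5, 139.7 and 168 TPM in LY, against 216, 74.0, 189.6, 208 and 208 TPM in DMSO. ETFB did not pass with NC-2 (log2 fold change -0.38, 95% interval -0.997 to 0.24), which was the lowest of all 10 libraries. Its partner ETFA averaged 112 ± 17.5 TPM in LY and 137 ± 34.5 TPM in DMSO (log2 fold change -0.27, 95% interval -0.63 to 0.094). Without NC-2 ECI1 (-0.54, adjusted p = 0.0015), ETFB (-0.67, adjusted p = 0.00276) and ETFA (-0.37, adjusted p = 0.0424) fell in the limma fit, and with median-ratio scaling of all libraries ECI1 (-0.51, adjusted p = 0.00522) and ETFA (-0.41, adjusted p = 0.0179) fell too. The log2 ratio of ETFA to ETFB differed by 0.11 between LY and DMSO (exact p = 0.635, adjusted 0.726), and its controls ran from -0.81 to 0.43.

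**Figure D3:**
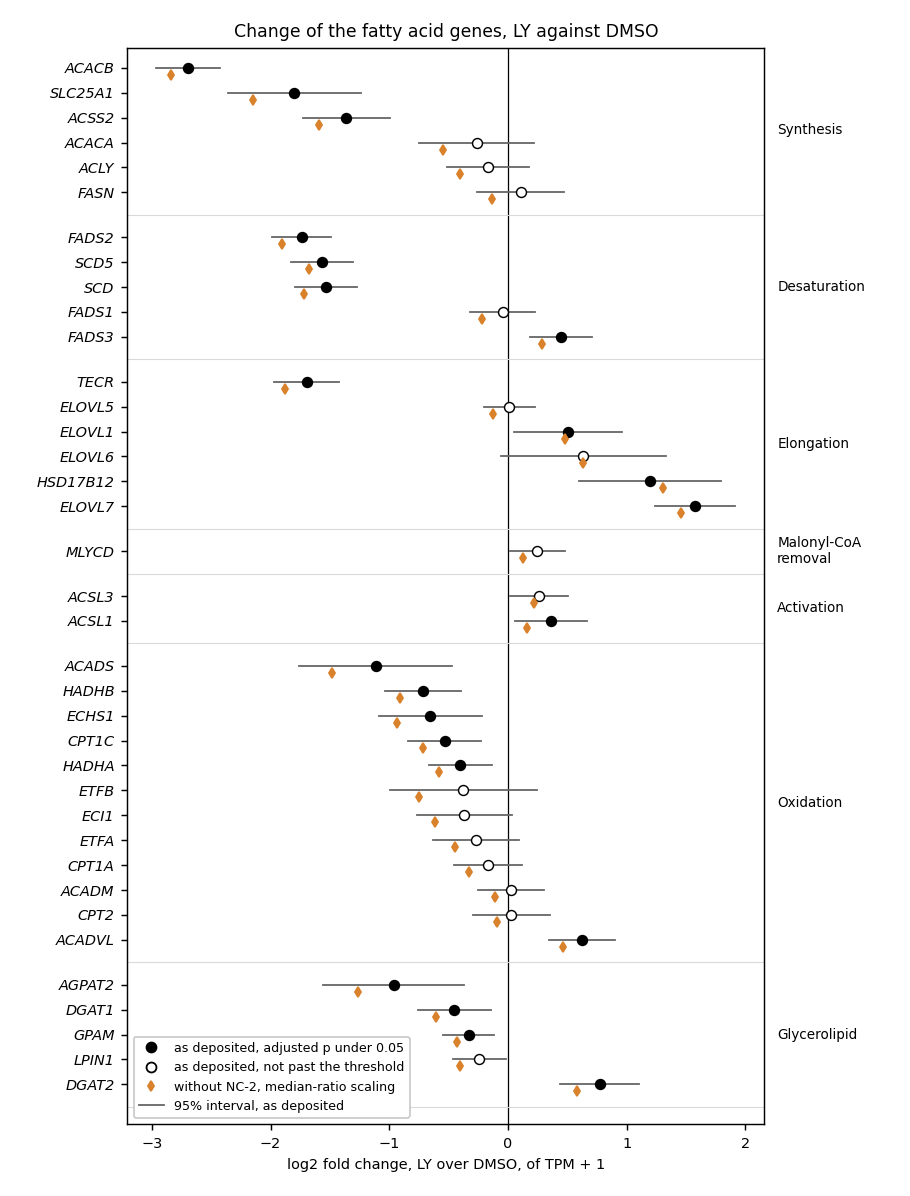
Log2 fold change, LY over DMSO, of TPM + 1 for the 37 tested genes by role, with the 95% interval, filled where the adjusted p was under 0.05; diamonds give the value with median-ratio scaling and NC-2 left out. ACACB lies at -2.69 and ELOVL7 at 1.58. The diamonds lie left of or on their circles in all roles, except for HSD17B12 (1.31 against 1.20). Over all tested genes the median was 0.17 as deposited and 0.027 with median-ratio scaling and NC-2 left out.

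Set side by side, the synthesis arm (synthesis, desaturation and elongation; 17 of 20 genes tested) had 4 genes that rose, 7 that fell and 6 that did not pass, and the oxidation arm (12 of 12 tested) 1, 5 and 6. Summary values of the arms differed in sign by how they were taken. The median log2 fold change was -0.17 for synthesis and -0.37 for oxidation, a difference of 0.20, whereas the mean was -0.49 for synthesis and -0.33 for oxidation, a difference of -0.17. Synthesis genes spread from -2.69 to 1.58 and oxidation genes from -1.12 to 0.63. Relative to the control mean of each gene, the median of the synthesis arm less that of the oxidation arm was 0.21, 0.24, 0.14, 0.16 and 0.12 on the log2 scale in the LY libraries, against -0.10, 0.051, 0.067, 0.00077 and -0.075 in the DMSO libraries. No p is given for these summaries.

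Activation and glycerolipid assembly lie outside both arms. ACSL1, a long-chain acyl-CoA synthetase, averaged 43.8 ± 3.86 TPM in LY and 34.4 ± 6.67 TPM in DMSO (SD, n = 5 each) and passed (log2 fold change 0.36 ± 0.14, adjusted p = 0.0375). It no longer passed with median-ratio scaling (0.22, adjusted p = 0.0703) or when LY-2, LY-3, LY-4 or NC-1 was left out (0.32 to 0.35, adjusted p = 0.0685 to 0.0824). ACSL3, the synthetase of lipid droplets, averaged 55.3 ± 8.59 TPM in LY and 45.6 ± 3.45 TPM in DMSO and did not pass (log2 fold change 0.26 ± 0.11, adjusted p = 0.0597 by limma). It passed without LY-5 (0.32, adjusted p = 0.0276) and without NC-2 (0.30, adjusted p = 0.0293), and its log2 fold change was 0.12 with median-ratio scaling (adjusted p = 0.499).

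Of the 5 glycerolipid genes 1 rose, 3 fell and 1 did not pass. DGAT2, which forms triglyceride from newly made fatty acids, measured 22.7, 20.3, 27.6, 20.3 and 30.0 TPM in LY, against 15.3, 9.60, 15.6, 14.3 and 14.0 TPM in DMSO. It rose without overlap (log2 fold change 0.77 ± 0.15, adjusted p = 0.000817). DGAT1, the unrelated enzyme of the same reaction, measured 8.36, 8.51, 6.62, 9.52 and 11.2 TPM in LY, against 12.8, 9.45, 13.6, 13.6 and 12.5 TPM in DMSO. It fell (log2 fold change -0.45 ± 0.14, adjusted p = 0.0142), with NC-2 inside the LY range, and HSF1 overlaps it on the opposite strand. DGAT2 made up 73.0 ± 4.74% of the summed TPM of the pair in LY and 52.4 ± 1.63% in DMSO, and the log2 ratio of DGAT1 to DGAT2 was -1.35 ± 0.338 in LY and -0.13 ± 0.0881 in DMSO (SD, n = 5 each; difference -1.22, exact p = 0.00794, adjusted 0.0159).

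AGPAT2, which adds the second acyl chain to glycerol phosphate, measured 37.7, 57.4, 56.4, 42.4 and 67.5 TPM in LY, against 143, 54.0, 138, 130.01 and 73.8 TPM in DMSO. It fell (log2 fold change -0.96 ± 0.27, adjusted p = 0.00815), although NC-2 lay inside the LY range and NC-5 near it. GPAM, the mitochondrial enzyme that adds the first chain, averaged 7.38 ± 0.718 TPM in LY and 9.53 ± 0.763 TPM in DMSO and fell without overlap (log2 fold change -0.33 ± 0.097, adjusted p = 0.0099). LPIN1, the phosphatidate phosphatase, averaged 54.8 ± 2.004 TPM in LY and 65.3 ± 8.38 TPM in DMSO and did not pass (log2 fold change -0.24 ± 0.10, adjusted p = 0.0583 by limma), but fell without NC-2 (-0.33, adjusted p = 0.000923) and with median-ratio scaling (-0.39, adjusted p = 0.000259).

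Further genes of the pathway were read from 6 lists, whose counts stand beside 39.8% risen and 24.9% fallen of all tested genes. Of 27 tested genes of transcriptional and kinase control 9 rose and 11 fell (median log2 fold change -0.21). MLXIPL, the carbohydrate response factor ChREBP, fell (4.80 ± 1.40 TPM in LY, 16.9 ± 2.75 TPM in DMSO; log2 fold change -1.65 ± 0.18). RXRA (-1.45 ± 0.17) and NR1H3, the liver X receptor alpha (-0.91 ± 0.15), nuclear receptors that are known to drive lipogenic genes together, fell as well. In the same list MLX rose (0.54 ± 0.10), and NR1H2 (0.53 ± 0.24), SREBF1 (-0.23 ± 0.14) and SREBF2 (-0.15 ± 0.14) did not pass. With NC-2 left out and median-ratio scaling SREBF1 (-0.42, adjusted p = 0.00476 by limma) and SREBF2 (-0.37, adjusted p = 0.00158 by limma) fell. Subunits of AMP-activated protein kinase, known to inhibit both acetyl-CoA carboxylases, rose in 6 of 6 listed genes (39.8% of all tested genes rose). Their log2 fold changes were 0.62 to 1.19. PRKAA2 among them entered the test through its LY libraries (2.19 to 2.99 TPM), since of its controls (0.743 to 1.002 TPM) only NC-5 reached 1 TPM. PRKAG2 averaged 78.4 ± 9.58 TPM in LY and 34.2 ± 7.65 TPM in DMSO (1.19 ± 0.14). PRKAA1 averaged 68.0 ± 8.67 TPM in LY and 33.2 ± 3.71 TPM in DMSO (1.01 ± 0.11), and PRKAB1 averaged 48.4 ± 5.30 TPM in LY and 24.3 ± 3.19 TPM in DMSO (0.96 ± 0.11).

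Of 17 tested further genes of mitochondrial oxidation 2 rose and 8 fell, beside 39.8% and 24.9% of all tested genes (median log2 fold change -0.45). With median-ratio scaling of the libraries other than NC-2, 2 rose and 13 fell, beside 36.3% and 34.3%. ACADSB, the dehydrogenase of branched short chains, averaged 2.57 ± 0.269 TPM in LY and 13.8 ± 0.808 TPM in DMSO (log2 fold change -2.05 ± 0.092). ETFDH, which passes electrons from the carrier of ETFA and ETFB to ubiquinone, averaged 5.38 ± 1.005 TPM in LY and 14.9 ± 2.66 TPM in DMSO (-1.31 ± 0.14), and the isomerase ECI2 fell (-1.06 ± 0.11). ACAD11, a dehydrogenase of long chains, rose, with 84.2 ± 6.12 TPM in LY and 28.96 ± 3.23 TPM in DMSO (1.51 ± 0.10), as did the thioesterase ACOT9 (1.07 ± 0.17). Of 13 tested peroxisomal genes 2 rose and 7 fell (median -0.54). HSD17B4, the peroxisomal multifunctional enzyme, averaged 19.5 ± 2.66 TPM in LY and 68.2 ± 7.37 TPM in DMSO (-1.75 ± 0.11), and CROT (-1.87 ± 0.12) and SCP2 (-1.29 ± 0.19) fell with it. HACL1, of alpha-oxidation, rose (0.89 ± 0.20).

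Among 15 tested further synthesis and elongation genes 1 rose, 2 fell and 12 were not called, with a median log2 fold change of -0.19, and with median-ratio scaling 7 fell (32.2% of all tested genes). CYB5A, the cytochrome b5 that hands electrons to the desaturases, averaged 6.81 ± 1.80 TPM in LY and 35.4 ± 8.85 TPM in DMSO (-2.20 ± 0.21). ME1, a cytosolic source of NADPH, fell (-0.62 ± 0.099), and the dehydratase HACD1 of the elongation cycle rose (0.66 ± 0.15). Of 8 tested genes of activation, uptake and binding 2 rose and 5 fell (median -1.15). The transporters SLC27A1 (-2.005 ± 0.20) and SLC27A3 (-1.33 ± 0.27) and the synthetase ACSF2 (-1.88 ± 0.23) fell, whereas ACSL4, which activates arachidonate, averaged 42.4 ± 4.16 TPM in LY and 13.1 ± 1.92 TPM in DMSO (1.63 ± 0.12). The binding protein FABP5 rose (0.55 ± 0.087).

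Storage and lipolysis genes were divided, with 5 risen and 7 fallen of 16 tested (median log2 fold change -0.051). GPAT3, an acyltransferase of the endoplasmic reticulum, averaged 8.36 ± 0.811 TPM in LY and 31.0 ± 3.59 TPM in DMSO (-1.77 ± 0.11), and BSCL2, the droplet assembly protein seipin (-1.64 ± 0.16), and LPIN3 (-1.04 ± 0.17) fell. ABHD5, the activator of triglyceride lipase (0.91 ± 0.11), PLIN2, the coat protein of droplets (67.9 ± 3.80 TPM in LY, 41.8 ± 6.32 TPM in DMSO; 0.70 ± 0.11), and AGPAT5 (0.56 ± 0.15) rose. All list genes named here as risen or fallen in the values as deposited had an adjusted p of at most 0.00646 in the limma fit.

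**Figure D4:**
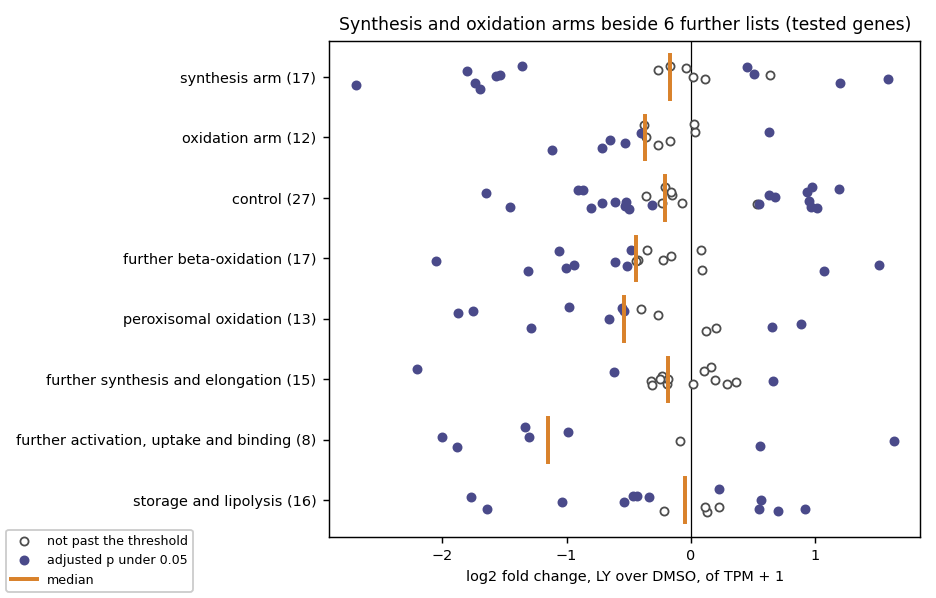
Log2 fold change, LY over DMSO, of TPM + 1 for the tested genes of the synthesis arm, the oxidation arm and 6 further lists, with the number tested in brackets, 1 point per gene (filled where the adjusted p was under 0.05; vertical spread is for legibility only) and the median as a bar. Medians run from -1.15 for activation, uptake and binding to -0.051 for storage and lipolysis, against 0.17 over all tested genes.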

How the data were processed

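RNA sequencing of 10 PANC-1 libraries was deposited as 1 table of TPM, which the authors computed per gene. Column totals ran from 999932 to 999967. The builds GRCm38, mm10 and hg38 appear in the submitters' processing notes without roles, and no aligner, counter or annotation is named in the sources used. Library depth is unknown. All 5 labelled samples of each group were used, where the design text gives 4. Control columns are named NC and were assigned to DMSO as a group. Of 20263 Ensembl IDs, 20148 were named from a gene name table and 76 from GENCODE release 29, whose hg38 positions are given, and 39 stayed unnamed.

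In R 4.3.3 with limma 3.58.1, treatment was the single factor of a fit, with mean-variance trend, to log2(TPM + 1) of 11663 genes with at least 1 TPM in at least 5 libraries, with Benjamini-Hochberg adjustment over all of them. The fit was tested on simulated data. Members, arms and lists were chosen with earlier results of these data known. From each list the 3 largest rises and 3 largest falls among changed genes with a mean of at least 5 TPM in the higher group are named, apart from 1 that is not reported here. Whether replicates were separate cultures is not stated, and p-values cover only the spread among the libraries, which may be technical. Alternatives covered the pseudocount, the filter, scaling, the variance model and each library left out.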

Additional observations from a re-analysis of the deposited data

Results flagged for a closer look

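Each library was compared with the other 4 of its group for the 37 tested genes and the 8 ratios, 90 groups in all. In 16 of them the gap to the nearest other library exceeded 0.71 of the group's range, where chance gives about 1 in 20. NC-2, the control with 37.5% mitochondrially encoded TPM, was the library apart in 12 of the 16, and the part of that share in these values was not tested.

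NC-2 was the low library for ACLY (136 TPM), FASN (101 TPM), TECR (183 TPM), SLC25A1 (72.7 TPM), HADHA (202 TPM), HADHB (135 TPM), ECHS1 (111 TPM), ETFB (74.0 TPM), LPIN1 (50.6 TPM), DGAT1 (9.45 TPM) and DGAT2 (9.60 TPM). For HSD17B12 NC-2 was high instead, with 73.4 TPM against 33.1 to 42.4 TPM in the other controls. Among LY libraries, LY-2 was high for ACACB (0.979 TPM) and CPT2 (41.5 TPM), LY-4 was low for ELOVL1 (109 TPM), and LY-1 was high for the log2 ratio of ETFA to ETFB (0.161).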

How the results depend on the processing

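The alternatives changed the pseudocount, the filter on low values, the scaling of libraries, the variance model, or the libraries included. Of the 37 tested genes, 4 rose with upper-quartile scaling, and 24 fell with upper-quartile and with quantile scaling. Over all 11663 tested genes 3452 rose and 4228 fell with upper-quartile scaling, and 4055 rose and 3694 fell with quantile scaling. FASN turned to -0.037 with median-ratio scaling, -0.18 with quantile scaling, -0.14 with upper-quartile scaling, -0.047 with mitochondrially encoded genes removed and -0.13 with NC-2 left out and median-ratio scaling. In the same order ELOVL5 turned to -0.13, -0.27, -0.23, -0.14 and -0.12, CPT2 to -0.11, -0.18, -0.21, -0.12 and -0.093, and ACADM to -0.12, -0.22, -0.22, -0.13 and -0.11. The cause was not tested. Without a filter the median log2 fold change of synthesis less oxidation was 0.33, where more genes of low level entered. Over all tested genes 3977 rose and 3757 fell with median-ratio scaling, where 4639 rose and 2899 fell without it.

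With each library left out in turn, 5 to 9 of the 37 tested genes rose and 15 to 21 fell. Over all 11663 tested genes 4400 to 4607 rose and 2633 to 3610 fell. Both the 21 and the 3610 were the values without NC-2. Log2 fold changes ran from -0.056 to 0.18 for FASN, -0.14 to 0.017 for FADS1, -0.046 to 0.048 for ELOVL5, -0.10 to 0.10 for CPT2 and -0.043 to 0.099 for ACADM. Ratio differences ran from 0.25 to 0.37 for HADHA/HADHB, -0.011 to 0.30 for ETFA/ETFB and -0.087 to 0.053 for SCD5/SCD. Counts of groups that do not overlap with NC-2 left out were added after the data were seen. All 30 list genes chosen by the naming rule kept their call, except 2 with quantile and 1 with upper-quartile scaling. No paired analysis was possible because the control columns carry numbers that the labels do not tie to numbered samples. Read depth is unknown, so counting error behind genes near 1 TPM, such as ACACB in LY and ELOVL7 in DMSO, cannot be given.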
